A study of Mus musculus and Homo sapiens with 8 samples.

Results

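The changes that followed loss of ANP32B in mouse LSK cells and in human KU812 cells were set side by side, 1 gene at a time. All 8 libraries of the series entered. Genes were matched where the upper-case symbol was the same and occurred once per species, which held for 10855 of the 17097 genes listed for mouse and the 20296 listed for human. Of these, 9922 had enough counts to be tested in both experiments. Symbols below are written in upper case for both species. An equal symbol does not prove that 2 genes are true counterparts, and genes named differently in each species are not covered.

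LSK stands for lineage-negative, Sca-1+, c-Kit+, the gate of the bone marrow that holds the hematopoietic stem cells with the multipotent progenitors below them. The mice were C57BL/6 and either WT (2 libraries) or Anp32b-KO (2 libraries). KU812 is an established line of chronic myelogenous leukemia (CML) with basophil features, and it carried a control hairpin, shNC (2 libraries), or a hairpin against the gene, shANP32B (2 libraries). The number of hairpins, the deleted exons of Anp32b, the age of the mice and the origin of each replicate do not appear in the sources used here. The spread behind each p-value is thus that of these libraries, and it may be technical. The species, the cell type and the way the gene was lost all differ between the experiments, so what any difference between them comes from cannot be told apart.

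ANP32B is a small acidic nuclear protein of the leucine-rich repeat ANP32 family, which binds histones and acts as a chaperone for them. The series' title places it as a repressor of p53, the transcription factor that halts the cell cycle or starts cell death after damage, in normal and CML stem cells. Stem cells of the marrow divide rarely and keep low levels of the genes of mature blood cells, whereas a leukemia line divides without pause.

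LSK libraries held 10549358 to 15683480 counts and KU812 libraries 24416691 to 28209409. Levels are given as CPM, counts relative to library size, scaled within each experiment, so a level in LSK cells is not compared with a level in KU812 cells. The WT libraries stood apart from each other. Immunoglobulin genes took 1.44% of counts in WT library 1 and 0.322% in WT library 2, against 0.530% and 0.655% in the KO libraries, and the ribosomal RNA gene Rn18s-rs5 took 0.0293% and 0.851% in WT, against 0.510% and 0.300% in KO. Stem cell markers were present in both LSK groups (summed level 2041 and 1814 CPM in WT, 2069 and 1967 in KO) and basophil and mast cell markers in both KU812 groups (5699 and 5144 CPM in shNC, 5073 and 5055 in shANP32B).

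The targeted gene was lower in both experiments. Mouse Anp32b lies on the plus strand at chr4:46450902-46472657 (GRCm38). In LSK cells ANP32B stood at 794 and 730.4 CPM in WT and 201 and 249 CPM in KO, a log2 fold change of -1.76 (SE 0.17). Counts are per gene, so the KO reads may lie outside the deleted part. In KU812 cells ANP32B fell from 250.2 and 286 CPM to 40.4 and 38.2 CPM, with a log2 fold change of -2.77 (SE 0.12) and an edgeR adjusted p of 5.18e-08. The drop was larger in KU812 cells by 1.01 on the log2 scale (SE 0.20, edgeR adjusted p = 0.0225 for the difference).

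Across all shared genes the 2 sets of changes were close to unrelated. Of the 9922 genes, 5279 (53.2%) had the same sign of change in both, 2386 above 0 and 2893 below it, while 2372 were higher in KO LSK cells and lower in shANP32B cells and 2271 the reverse. Separately, 48% of the shared genes were above 0 in LSK cells and 46.9% in KU812 cells. Pearson's r across genes was 0.038 and Spearman's rho 0.063, and among the 8588 genes that averaged 50 counts or more in both experiments they were 0.067 and 0.094. The genes share their libraries and depth and are not replicates, so these values are a description. Among the 1957 genes past the KU812 threshold the share with the same sign was 56.5%, and among the 668 of those whose LSK libraries did not overlap either it was 60.9%. The size of the change in KU812 cells carried little of the LSK change with it: the median LSK log2 fold change was 0.013 for the 71 genes below -2 in KU812 cells and 0.039 for the 49 genes above 2. Only 29 and 10 of these averaged 50 counts or more in both experiments. Among genes that did, 62.6% of the 99 from 1 to 2 in KU812 cells were above 0 in LSK cells, and 54.8% of the 124 from -2 to -1. From 0.58 to 1 and from -1 to -0.58 the shares were 56.5% and 45.3%.

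The statistical footing of the 2 experiments was unequal. In KU812 cells 2741 of 16529 genes (16.6%) passed an adjusted p of 0.05 in edgeR's quasi-likelihood test (5047, or 30.5%, unadjusted), and among the shared genes 790 rose (7.96%) and 1167 fell (11.8%). In LSK cells 0 of 14598 genes passed, 657 had an unadjusted p under 0.05 (4.5%), and DESeq2 called 15. ANP32B, the deleted gene itself, did not pass in LSK cells (edgeR adjusted p = 0.148). A count of 0 there does not show that no gene changed. Without single libraries the KU812 counts moved: 1251 shared genes rose without shNC library 2, 451 rose and 664 fell without shANP32B library 1, and 362 rose and 643 fell without shANP32B library 2. In LSK cells 830 of the genes tested passed without WT library 2, 36 without WT library 1 and 5 without KO library 1. LSK values are therefore given as levels and as whether both KO libraries lay on one side of both WT libraries, which held for 1699 shared genes on the higher side (17.1%) and 1533 on the lower side (15.5%). With 2 libraries against 2, many genes that did not change also fall apart in this way. A lack of overlap in LSK cells therefore does not by itself show a change, here or for any gene below. In KU812 cells the libraries did not overlap for 28.4% on the higher and 33.4% on the lower side, and 20.2% were free of overlap in both experiments.

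A gene was counted as shifted in both experiments when it passed the KU812 threshold at 1.5-fold or more, and its LSK libraries did not overlap and differed by 1.5-fold or more. The LSK condition alone held for 191 genes on the higher side (1.93%) and 170 on the lower side (1.71%), and the KU812 condition alone for 467 (4.71%) and 591 (5.96%). Together they left 70 genes: 20 were higher in both (0.202% of the genes tested), 19 lower in both (0.191%), 16 higher in LSK and lower in KU812 (0.161%), and 15 lower in LSK and higher in KU812 (0.151%). Opposite shifts were thus about as many as shared ones, 31 against 39. The 39 include ANP32B, the gene that was itself deleted or targeted. Of the 191 genes higher in LSK cells, 10.5% were higher and 8.38% lower in KU812 cells, where 4.71% and 5.96% of all shared genes were. Of the 170 genes lower in LSK cells, 8.82% were higher and 11.2% lower. As shares of the KU812 lists, the genes also higher in LSK cells were 4.28% of the 467 and 2.71% of the 591, and those also lower in LSK cells 3.21% of each. The plot of both changes per gene shows the 4 groups at the edge of the cloud.

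**Figure D1:**
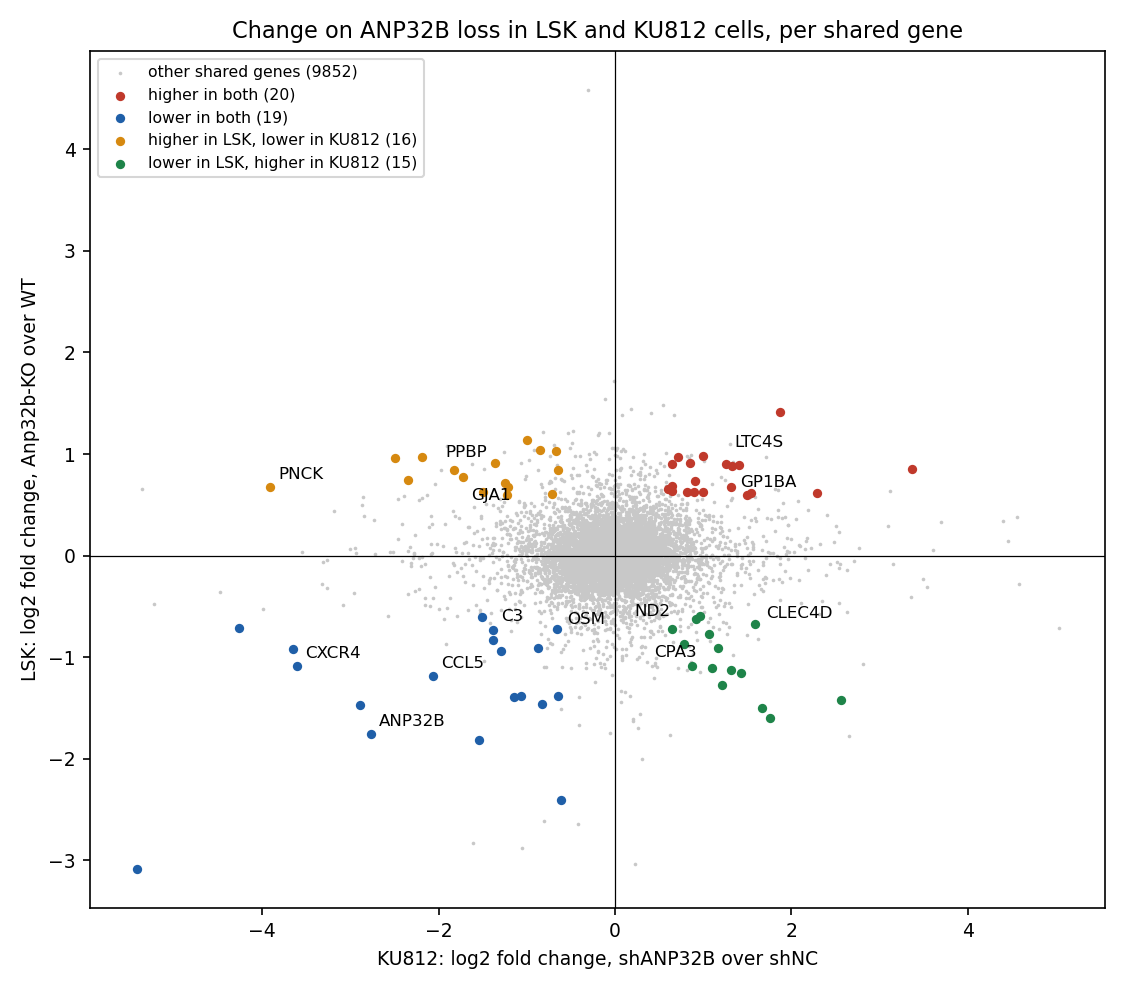
Log2 fold change in KU812 cells (horizontal axis, shANP32B over shNC) against log2 fold change in LSK cells (vertical axis, KO over WT) for 9922 shared genes, 1 point per gene. Coloured points are the 20, 19, 16 and 15 genes that met the counting rule in each pair of directions, grey points are the other 9852 genes, and the cloud shows no tilt (Pearson's r 0.038).

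The counts moved with single libraries. Leaving out an LSK library sets 1 library against 2, and these overlap less readily. The rule is then looser, so a higher count does not by itself show dependence on that library. Genes higher in both numbered 59 without WT library 2, 39 without KO library 1, 9 without shANP32B library 1 and 13 without shANP32B library 2. Genes lower in both numbered 59 without WT library 2, 43 without KO library 1 and 33 without KO library 2. Genes higher in LSK and lower in KU812 numbered 29, 68, 33 and 41 without WT 1, WT 2, KO 1 and KO 2, and 28 without shNC library 2. Genes with the reverse pattern numbered 34, 37, 32 and 26 without the same 4 LSK libraries, and 7 without shANP32B library 2. Without WT library 1, 47 of the 70 genes stayed in their group. Of the 139 genes that the naming rules chose, 59 had an LSK value that moved by over 1.5 times or changed sign without that library, 7 of them by sign. Genes near the 1.5-fold limit (0.58 on the log2 scale) included GIMAP1 just inside it, at 0.59 in LSK cells, and CACNA1D just outside it, at 0.56.

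GP1BA, the platelet receptor for von Willebrand factor, stood at 3.34 and 3.72 CPM in WT and 7.08 and 5.94 CPM in KO LSK cells, and at 26.7 and 22.9 CPM in shNC and 66.4 and 57.97 CPM in shANP32B cells. In both experiments the 2 perturbed libraries lay above the 2 controls, with log2 fold changes of 0.88 (SE 0.33) in LSK and 1.32 (SE 0.14) in KU812 cells (edgeR adjusted p = 5.65e-05 in KU812). LTC4S, the synthase that makes leukotriene C4, stood at 2.29 and 4.199 CPM in WT, 6.100 and 5.94 in KO, 53.4 and 69.8 in shNC and 138 and 157 in shANP32B, log2 fold changes of 0.91 (SE 0.40) and 1.26 (SE 0.14, edgeR adjusted p = 6.95e-05 in KU812). The LSK value of LTC4S was 0.52 without WT library 1 and 1.39 without WT library 2. MMP14, a membrane-bound protease that cuts collagen, had 6.62 and 11.9 CPM in WT, 16.02 and 18.6 in KO, 97.99 and 142 in shNC and 188 and 245 in shANP32B. Its shift was nearly equal in both, 0.91 (SE 0.30) and 0.85 (SE 0.16), and became 0.54 in LSK cells without WT library 1.

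RAB6B, a small GTPase of Golgi transport, was 6.42 and 7.63 CPM in WT and 12.4 and 13.8 in KO, and 156 and 132 CPM in shNC and 222 and 230.4 in shANP32B cells. CCND1, cyclin D1, which starts G1 progression, was 23.01 and 33.02 CPM in WT and 46.9 and 40.95 in KO, and 206 and 181 CPM in shNC and 308 and 277 in shANP32B cells. Neither gene overlapped between groups in either experiment, and both rose in KU812 cells (edgeR adjusted p = 0.00196 for RAB6B and 0.00277 for CCND1). Their log2 fold changes were 0.90 (SE 0.25) and 0.65 (SE 0.11) for RAB6B, and 0.65 (SE 0.20) and 0.60 (SE 0.11) for CCND1. Without WT library 1 the LSK value of CCND1 was 0.41, short of 1.5-fold. Another D-type cyclin, CCND2, had 129.7 and 140.4 CPM in WT, 183 and 165 in KO, 1.502 and 0.732 in shNC and 4.59 and 2.82 in shANP32B, where it rose (edgeR adjusted p = 0.0199). The others named by the rule were VASH1, an inhibitor of vessel growth (0.73 in LSK and 0.90 in KU812 cells), SEMA6C (0.97 and 0.72), ABCA5 (0.68 and 1.32), the Src-family kinase YES1 (0.64 and 0.65), BASP1 (0.63 and 0.89) and the repressor ZHX2 (0.63 and 0.82). In KU812 cells ABCA5 lost its call with DESeq2 (adjusted p = 0.0661), and 5 of these genes lost it without 1 library. Without shNC library 2 the edgeR adjusted p was 0.0828 for SEMA6C, 0.0905 for ABCA5 and 0.122 for BASP1. Without shANP32B library 1 the edgeR adjusted p was 0.224 for SEMA6C, 0.116 for ABCA5, 0.075 for BASP1 and 0.159 for ZHX2. Without shANP32B library 2 the edgeR adjusted p was 0.0765 for VASH1 and 0.232 for ABCA5.

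Of the 19 genes lower in both, 5 averaged 50 counts or more in each experiment: ANP32B, CXCR4, OSM, C3 and CCL5. CXCR4, the receptor for CXCL12 that holds stem cells in the marrow, stood at 186 and 68.99 CPM in WT and 66.6 and 54.02 CPM in KO LSK cells. In KU812 cells CXCR4 fell from 11.4 and 10.8 CPM to 0.926 and 0.887 CPM, a log2 fold change of -3.61 (SE 0.30, edgeR adjusted p = 6.36e-06). The LSK groups did not overlap, but WT library 1 stood far above the other 3, and the LSK log2 fold change of -1.09 (SE 0.39) became -0.20 without it. The fall was larger in KU812 cells, by 2.52 (SE 0.58, edgeR adjusted p = 0.0455).

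OSM, oncostatin M, a cytokine of the IL-6 family, shifted by nearly the same amount in both experiments. It stood at 65.1 and 52.2 CPM in WT and 39.4 and 32.1 CPM in KO, and fell from 90.1 and 96.4 to 59.3 and 58.5 CPM in KU812 cells, log2 fold changes of -0.72 (SE 0.17) and -0.66 (SE 0.12, edgeR adjusted p = 0.0022 in KU812). The difference between the experiments was -0.057 (SE 0.21), with an edgeR adjusted p of 0.914, and the LSK value was -0.55 without WT library 1. C3, the central complement component, stood at 163 and 93.4 CPM in WT, 67.1 and 87.99 in KO, 15.02 and 13.96 in shNC and 6.79 and 4.28 in shANP32B, log2 fold changes of -0.73 (SE 0.26) and -1.39 (SE 0.25), the first -0.27 without WT library 1. CCL5, a chemokine for T cells and monocytes, was 5.96 and 5.63 CPM in WT and 2.36 and 2.73 in KO, and 3.93 and 7.93 in shNC and 1.93 and 0.887 in shANP32B, with -1.19 (SE 0.35) and -2.06 (SE 0.44). Both C3 and CCL5 fell in KU812 cells (edgeR adjusted p = 0.00238 and 0.00634). Among the other 14, which had a mean under 50 counts in at least 1 experiment, the creatine transporter SLC6A8 fell in KU812 cells from 298 and 147 to 19.1 and 16.3 CPM (edgeR adjusted p = 1.57e-06), while in LSK cells it stood at only 1.11 and 2.099 CPM in WT and 0.895 and 0.769 in KO.

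**Figure D2:**
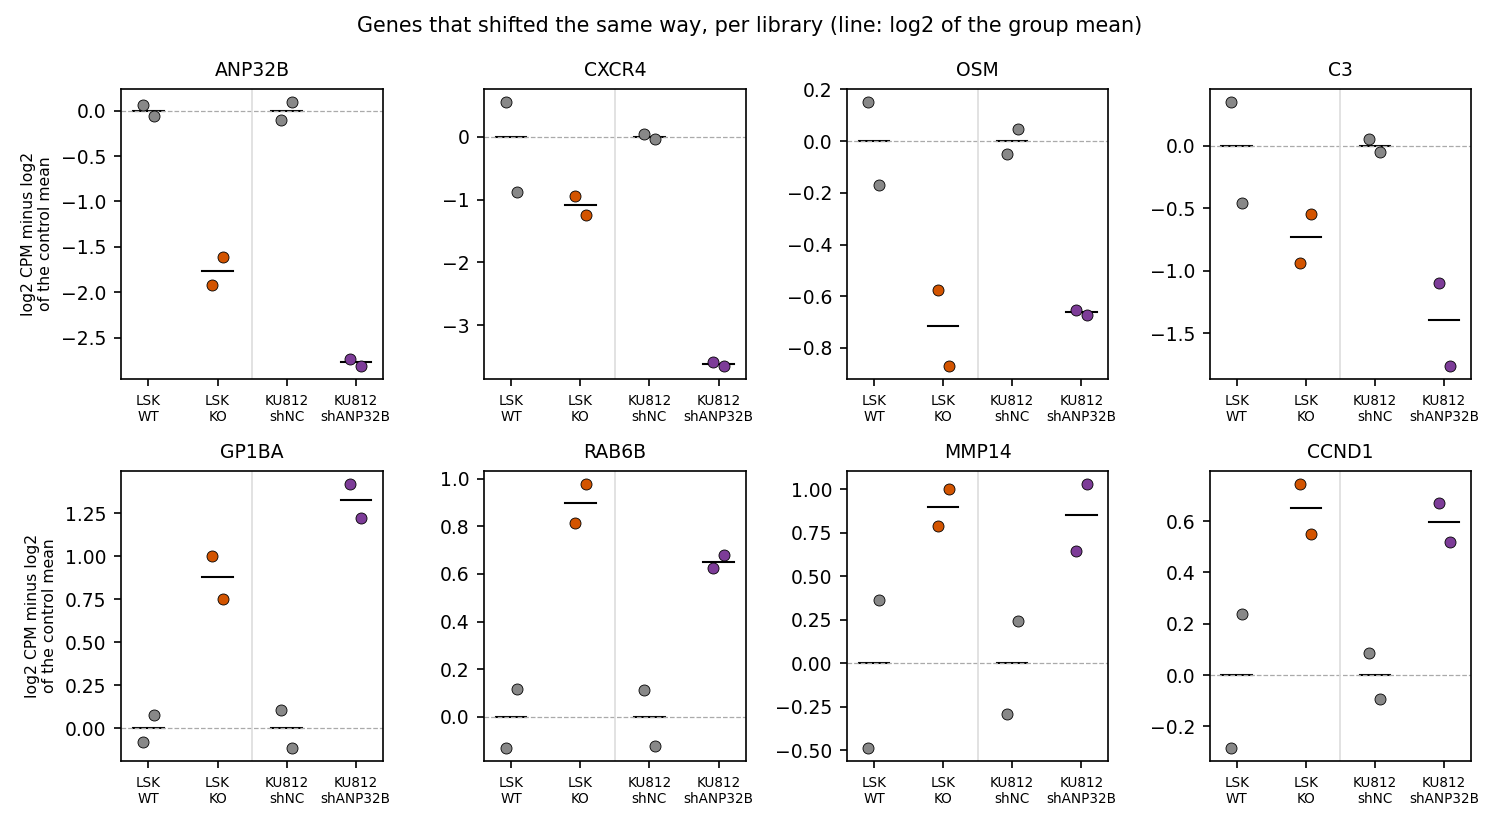
Level per library of 8 genes that shifted the same way, as log2 CPM minus log2 of the mean of the experiment's control group (vertical axis), with 2 libraries per group on the horizontal axis and a line at log2 of the group mean. ANP32B, CXCR4, OSM and C3 lie below their controls and GP1BA, RAB6B, MMP14 and CCND1 above them, and the 2 WT libraries of CXCR4 lie apart (186 and 68.99 CPM).

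A wider set came from the average of the 2 changes, tested in 1 model over all 8 libraries. The average passed for 498 genes (5.02%), and a common change, for which the signs also had to be equal and the libraries of each experiment not to overlap, held for 259 (2.61%), 115 higher and 144 lower. The KU812 side was the larger in most: the median size of the change among the 259 was 0.35 in LSK and 0.72 in KU812 cells, against 0.13 and 0.25 over all shared genes. Of the 259, 40 were at least 1.5-fold in both experiments and 33 also met the counting rule, whose other 6 genes with the same direction were no common change. The count was 419 without WT library 1 and 979 without WT library 2, and 46, 51, 100, 49 and 54 without KO 1, KO 2, shNC 1, shANP32B 1 and shANP32B 2. An average can pass on the strength of 1 experiment, and the common change rule does not screen out every such gene. GBP5, an interferon-induced GTPase, counted as a common change although its LSK log2 fold change was only 0.062. It was 27.5 and 28.7 CPM in WT and 29.9 and 28.7 in KO, and rose from 13.5 and 11.6 to 37.9 and 36.5 CPM in KU812 cells.

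Besides ANP32B, GP1BA and CXCR4, the common changes with the smallest p included the 4 genes described here, whose LSK values were 0.52 for AQP1, 0.38 for SMAD7, 0.38 for TOX and -0.33 for PLAC8. AQP1, a water channel of red cells and their progenitors, stood at 45.2 and 73.3 CPM in WT and 73.6 and 95.4 in KO, and rose from 28.9 and 24.4 to 113 and 86.01 CPM in KU812 cells (average change 1.21, SE 0.16, edgeR adjusted p = 0.00398). SMAD7, the inhibitor of TGF-beta signalling, was 103 and 106 CPM in WT, 138 and 133 in KO, 1.502 and 1.38 in shNC and 3.94 and 6.45 in shANP32B (average 1.11, SE 0.15, edgeR adjusted p = 0.00398). TOX, a nuclear factor of lymphoid development, was 8.91 and 8.49 CPM in WT, 11.7 and 10.97 in KO, 35.3 and 45.4 in shNC and 105 and 117 in shANP32B (average 0.92, SE 0.12, edgeR adjusted p = 0.00376). PLAC8, a small protein of myeloid progenitors, went the other way, 722 and 671 CPM in WT, 540.3 and 567 in KO, 9.799 and 10.3 in shNC and 2.62 and 1.65 in shANP32B (average -1.28, SE 0.12, edgeR adjusted p = 0.000769). Without WT library 1 the LSK value of AQP1 was 0.20. In all 4 the libraries of each experiment did not overlap, and in all 4 the KU812 change was the larger by the test of the difference (edgeR adjusted p from 0.00371 for PLAC8 to 0.0444 for AQP1). DNAJB2, a co-chaperone, had an average change of 0.90 (SE 0.12). HLF, a stem cell transcription factor, stood at 178 and 198 CPM in WT and 239.7 and 237 in KO, but its KU812 side rests on 2 and 0 counts in shNC against 19 and 26 in shANP32B, and no fold is given for it.

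G2/M and mitosis genes had the same direction in both experiments in more of their members than any other list here. They encode the cyclins, kinases and motors that build the spindle and divide the chromosomes, and their promoters are known for CCAAT boxes, which bind NF-Y, and for the cell cycle homology element, to which the DREAM complex and MuvB bind. All 39 members tested had a log2 fold change below 0 in both experiments, where 2893 of 9922 shared genes did. In KU812 cells 19 of the 39 fell and 0 rose (11.8% and 7.96% over all shared genes). In LSK cells 15 had libraries that did not overlap and were lower (15.5% over all shared genes). Of the 39, 13 were lower without overlap in both experiments, as were 588 of the 9922 shared genes. The list's median was -0.24 in LSK and -0.38 in KU812 cells, against -0.010 and -0.026 over all shared genes. For 0 of the 39 did the change differ between the experiments by the test of the difference. Only 2.71% of all shared genes passed it, so the 0 says little. The common change rule was met by 8, all lower, as it was on the lower side by 144 of the 9922 shared genes: ASPM, AURKA, CCNB1, CDK1, CENPF, KIF11, KIF23 and MKI67.

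The mouse promoters of 4 members named by the rule are printed to show where these motifs lie, from 250 bases before to 50 after the gene's start, from RefSeq (GRCm38.p6), 5′ to 3′ on the gene's own strand. Capitals mark CCAAT on either strand (CCAAT or ATTGG) and the cell cycle homology element on either strand (TTTGAA or TTCGAA, or the reverse TTCAAA). The 2 motifs share no bases here.
CCNB1 (chr13:100786437-100786736, minus strand): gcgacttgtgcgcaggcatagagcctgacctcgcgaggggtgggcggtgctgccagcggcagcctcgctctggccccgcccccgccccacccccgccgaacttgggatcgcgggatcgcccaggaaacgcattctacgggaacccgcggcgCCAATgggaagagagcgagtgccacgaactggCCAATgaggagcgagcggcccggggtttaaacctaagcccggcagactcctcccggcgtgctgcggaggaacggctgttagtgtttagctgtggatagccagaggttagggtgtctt
MKI67 (chr7:135716330-135716629, minus strand): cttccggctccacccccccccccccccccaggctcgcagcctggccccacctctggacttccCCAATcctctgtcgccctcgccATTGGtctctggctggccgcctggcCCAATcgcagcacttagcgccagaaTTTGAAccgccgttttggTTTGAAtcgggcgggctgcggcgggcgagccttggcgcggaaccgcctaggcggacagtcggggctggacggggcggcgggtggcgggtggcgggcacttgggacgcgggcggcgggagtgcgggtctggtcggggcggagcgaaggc
ASPM (chr1:139454523-139454822, plus strand): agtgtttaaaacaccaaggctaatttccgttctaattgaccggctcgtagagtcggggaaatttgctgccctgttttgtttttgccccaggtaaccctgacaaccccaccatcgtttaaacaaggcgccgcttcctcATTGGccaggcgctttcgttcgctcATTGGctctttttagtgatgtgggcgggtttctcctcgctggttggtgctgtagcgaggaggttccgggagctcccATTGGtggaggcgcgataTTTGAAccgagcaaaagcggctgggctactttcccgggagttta
AURKA (chr2:172370521-172370820, minus strand): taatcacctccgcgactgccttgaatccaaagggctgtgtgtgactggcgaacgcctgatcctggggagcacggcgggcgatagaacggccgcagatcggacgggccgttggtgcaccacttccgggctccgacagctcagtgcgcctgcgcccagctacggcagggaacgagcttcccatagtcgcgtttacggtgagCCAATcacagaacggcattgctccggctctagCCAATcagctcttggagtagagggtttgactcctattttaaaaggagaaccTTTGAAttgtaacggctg
CCNB1, cyclin B1, held 2 CCAAT boxes and 0 homology elements in this window, MKI67, the proliferation antigen Ki-67, 3 and 2, ASPM, a spindle pole protein, 3 and 1, and AURKA, the Aurora A kinase, 2 and 1. Of the 33 members whose promoter was listed, 25 (75.8%) held CCAAT and 26 (78.8%) the homology element, against 38.6% and 13.2% of the 7784 shared genes with a promoter and 37.9% and 19.4% of all 27025 promoters. Among genes that met the counting rule, the shares were 34.5% and 17.2% of 29 promoters for the same direction. For opposite directions they were 28.6% and 33.3% of 21 promoters. On the G1/S and replication list 62.2% and 16.2% of 37 promoters held them. A match describes these letters in this window and does not show binding.

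By library, MKI67 stood at 821 and 819 CPM in WT and 615 and 644 in KO, and at 472 and 457 CPM in shNC and 339 and 377 in shANP32B cells. Its log2 fold change was the same in both, -0.38 (SE 0.15) and -0.38 (SE 0.10), and it was -0.38 in LSK cells without WT library 1. ASPM was 68.2 and 71.8 CPM in WT, 60.4 and 49.6 in KO, 229.9 and 203 in shNC and 128 and 149 in shANP32B, with -0.35 (SE 0.15) and -0.64 (SE 0.12). AURKA was 69.7 and 47.6 CPM in WT and 39.3 and 45.4 in KO, and 50.2 and 55.6 in shNC and 36.7 and 35.02 in shANP32B, with -0.47 (SE 0.20) and -0.56 (SE 0.13), the first -0.17 without WT library 1. MKI67, ASPM and AURKA fell in KU812 cells (edgeR adjusted p = 0.0208, 0.00255 and 0.0115). CCNB1, the largest LSK value of the list, was 69.2 and 51.6 CPM in WT and 44.2 and 36.1 in KO (-0.59, SE 0.19). In KU812 cells CCNB1 was 94.3 and 106 CPM in shNC and 83.9 and 74.5 in shANP32B (-0.34, SE 0.12, edgeR adjusted p = 0.0762, not past the threshold). The largest KU812 falls were those of the spindle checkpoint kinases BUB1 (-0.85) and TTK (-0.83), chosen after their values were seen, which stood at -0.28 and -0.22 in LSK cells.

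The uniform direction rested in part on WT library 1. Without it 29 of the 39 stayed below 0 in both and the LSK median was -0.051, and without KO library 1 33 did, with a median of -0.21. Without WT library 2, 37 did, and without KO library 2 all 39. With scaling by library totals alone 36 of the 39 were below 0 in both. In KU812 cells 4 members fell without shANP32B library 1 and 12 without shANP32B library 2, in place of 19. In these bulk samples fewer dividing cells and less of each RNA per cell cannot be told apart.

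**Figure D3:**
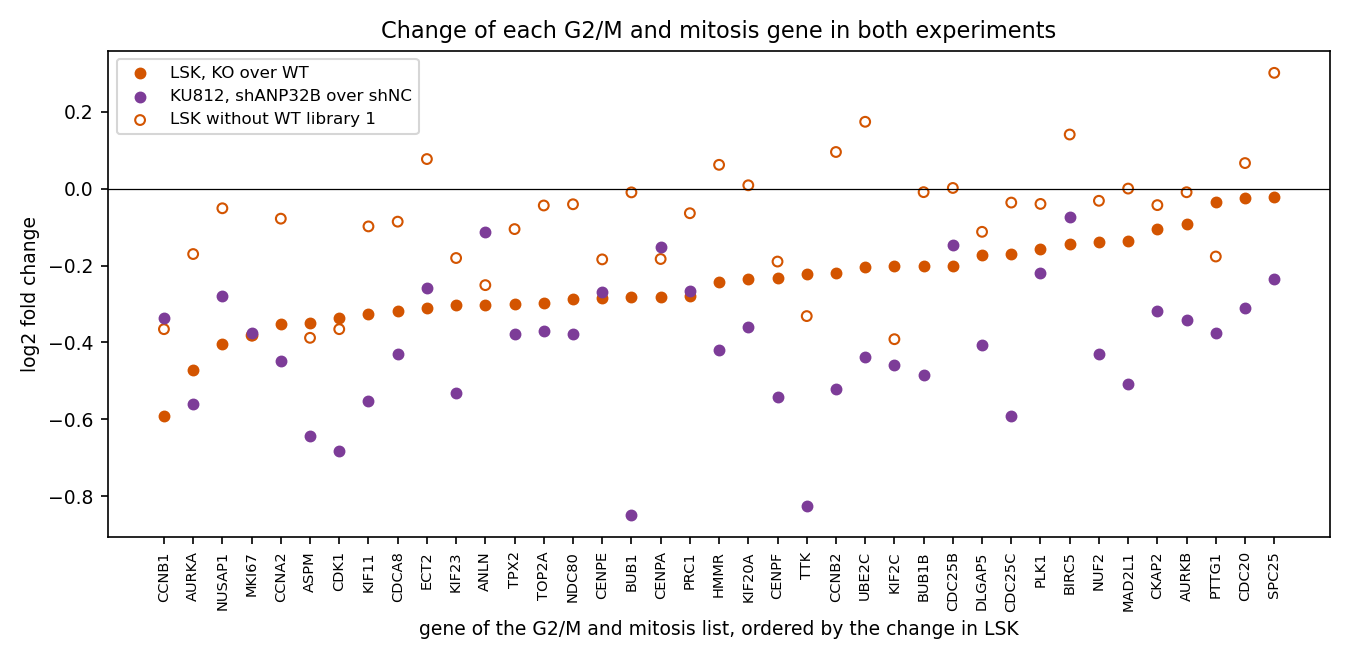
Log2 fold change (vertical axis) of each of the 39 G2/M and mitosis genes tested (horizontal axis, ordered by the LSK change), in LSK cells (filled orange), in KU812 cells (purple) and in LSK cells without WT library 1 (open orange). All filled points lie below 0, while 10 open points lie above it.

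Medians of the S phase and repair lists were lower in KU812 than in LSK cells. On the G1/S and replication list 25 of 46 members fell in KU812 cells (54.3%, against 11.8% over all shared genes) and 0 rose, with a median of -0.40. Without shANP32B library 1 10 of them fell, and without shANP32B library 2 14, while the LSK median was -0.044 and 14 members were above 0 in LSK cells. Of 36 DNA repair and Fanconi anemia genes 18 fell (50%) and 1 rose (median -0.43, LSK -0.042), and 6 and 8 fell without shANP32B library 1 and 2. Members lower without overlap in both included DTL, a substrate receptor for replication-linked protein destruction (-0.24 in LSK and -0.79 in KU812 cells), CDC45 of the replicative helicase (-0.28 and -0.55), TYMS, thymidylate synthase (-0.31 and -0.31), POLE2 (-0.40 and -0.29) and the repair gene BRCA1. BRCA1 was 58.8 and 55.9 CPM in WT and 47.1 and 44.2 in KO, and fell from 99.1 and 100.6 to 77.2 and 74.7 CPM in KU812 cells (edgeR adjusted p = 0.03). Its libraries lay close together within each group, and the log2 fold changes were -0.33 (SE 0.13) and -0.39 (SE 0.11). The repair genes FANCL (-0.40 and -0.38), XRCC2 (-0.31 and -0.58) and NBN (-0.24 and -0.44) were lower without overlap as well.

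Ribosomal protein genes fell in KU812 cells and did not move together in LSK cells. Of 73 tested, 49 fell in KU812 cells (67.1%, against 11.8% over all shared genes) and 0 rose (median -0.38), 18 fell without shANP32B library 1 and 18 without library 2, and in LSK cells 37 were above 0 and the median was 0.005. RPL24, of the large subunit, was lower in both: 214 and 197 CPM in WT, 169 and 164 in KO, 411 and 409 in shNC and 292 and 279 in shANP32B (-0.30 and -0.52, edgeR adjusted p = 0.00308 in KU812). RPS2 and RPS16, of the small subunit, went opposite ways. RPS2 stood at 1131 and 1285 CPM in WT and 1478 and 1594 in KO, and fell from 2622 and 2734 to 2012 and 1966 CPM in KU812 cells. For RPS16 the difference between the experiments passed the test (1.08, SE 0.24, edgeR adjusted p = 0.0389), and for RPS23 (0.30 and -0.30) it did not (edgeR adjusted p = 0.116). Ribosomal protein genes have many near-identical processed copies, so their counts depend on how shared reads were assigned, a step the sources used here do not describe. Of 33 ribosome biogenesis genes 3 fell in KU812 cells (9.09%), a share near the 11.8% of all shared genes, and 12 without shNC library 1. NPM1, nucleophosmin, a histone chaperone and ribosome assembly factor, was 1435 and 1324 CPM in WT, 1120.2 and 1215 in KO, 989 and 1073 in shNC and 735 and 747 in shANP32B, lower without overlap in both. NOLC1 (-0.21 and -0.23), WDR43 (-0.17 and -0.32) and LYAR (-0.12 and -0.53) shared that pattern.

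A formal test of the difference between the 2 changes found 269 genes (2.71%; 1837 at an unadjusted p under 0.05). That test, like the test of the average, uses 1 spread per gene for both experiments. Where LSK libraries vary more than KU812 libraries, it can understate the LSK spread and be too lenient. For EPCAM the SE was 0.45 in LSK and 0.12 in KU812 cells alone, but 0.32 for the difference. Of these 203 had opposite signs and 66 the same sign with unequal size. Most of the difference lay in KU812 cells: 257 of the 269 also passed the KU812 threshold, 152 had an absolute LSK log2 fold change under 0.25, and the LSK change was the larger in 14. In 128 the signs were opposite and the LSK libraries did not overlap, 47 of them higher in KU812 cells and 81 lower. The count was 417 and 780 without WT library 1 and 2, 59 and 52 without KO library 1 and 2, 116 without shNC library 1, and 108 and 57 without shANP32B library 1 and 2.

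Among the 10 smallest p-values of that test, 6 genes had an absolute LSK log2 fold change under 0.25. HGF, hepatocyte growth factor, fell in KU812 cells from 39.2 and 40.9 to 7.64 and 6.29 CPM and stood at 41.6 and 39.03 CPM in WT and 43.9 and 38.6 in KO (edgeR adjusted p = 0.000388 for the difference). HIST1H1C, a linker histone H1, fell from 39.02 and 40.3 to 7.49 and 8.39 CPM and stood at 167 and 199.5 in WT and 207 and 181 in KO. PTPRS, a receptor tyrosine phosphatase, rose from 3.004 and 1.99 to 16.6 and 17.7 CPM and stood at 159 and 226 in WT and 219 and 186 in KO. The LSK groups overlapped in these 3 genes. ENDOD1 and ADAP1 rose in KU812 cells (1.98 and 1.94) with LSK values of 0.039 and 0.018, and PLXND1, a semaphorin receptor, fell (-1.45) with 0.11 in LSK cells. AFAP1L1, an actin-associated protein, was of the opposite kind, 105 and 114 CPM in WT and 150.5 and 133 in KO against 9.55 and 7.77 in shNC and 2.701 and 2.38 in shANP32B (0.37 and -1.77).

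The opposite pair with the smallest p was S100A8 and S100A9, the 2 subunits of calprotectin, an antimicrobial protein of neutrophils and monocytes. In the mouse they lie together on chromosome 3, S100a8 at chr3:90668978-90670035 and S100a9 at chr3:90692632-90695721 (GRCm38). S100A8 stood at 184 and 188 CPM in WT and 127 and 140.5 in KO LSK cells, and rose from 0.9299 and 1.38 to 7.100 and 6.33 CPM in KU812 cells. S100A9 stood at 345 and 368 CPM in WT and 238 and 239.6 in KO, and rose from 0.644 and 0.773 to 4.01 and 3.03 CPM. No group overlapped its partner, and the differences between the changes were -3.02 (SE 0.24) and -2.89 (SE 0.26, edgeR adjusted p = 0.000377 and 0.000437). The KU812 levels are low, on 26 and 34 counts of S100A8 in shNC and 184 and 157 in shANP32B. LCN2, an iron-binding granule protein, had the same pattern, 91.9 and 94.5 CPM in WT, 68.2 and 46.8 in KO, 3.004 and 3.38 in shNC and 5.05 and 6.29 in shANP32B (difference -1.53, SE 0.29, edgeR adjusted p = 0.02), though its KU812 change alone was not past the threshold (edgeR adjusted p = 0.0774).

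The mature neutrophil and monocyte list as a whole stood at a median of -0.43 in LSK and 0.12 in KU812 cells over 22 genes. Of these 12 were lower in LSK and higher in KU812 cells and 7 lower in both. In LSK cells 10 of the 22 were lower without overlap and 1 higher (15.5% and 17.1% over all shared genes), and in KU812 cells 6 rose and 3 fell (27.3% and 13.6%, against 7.96% and 11.8%). Without shANP32B library 1, and likewise without library 2, 3 rose. The change differed for 5 (2.71% over all shared genes): ANXA1, CCR2, LCN2, S100A8 and S100A9. Not all members split, since CYBB, the catalytic subunit of the phagocyte oxidase, was lower in both (58.01 and 47.8 CPM in WT, 39.3 and 37.2 in KO, 10.1 and 12.98 in shNC and 6.71 and 8.55 in shANP32B, average change -0.53, SE 0.13, edgeR adjusted p = 0.0435). The summed level of the 9 markers of this cell type was 1498 and 1457 CPM in WT and 1100.5 and 963 in KO, with 8 of the 9 lower without overlap. In KU812 cells the 6 of them listed summed to 7.15 and 7.04 CPM in shNC and 20.9 and 18.6 in shANP32B. Mature cells do not belong to the LSK gate, and the part of such cells in the result was not tested. The LSK median of the list was -0.24 without WT library 1 and -0.23 without KO library 2.

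CEBPA and CEBPB, transcription factors of the myeloid line, were higher in KO LSK cells and fell in KU812 cells. CEBPA, the master regulator of granulocyte commitment, was 86.9 and 118 CPM in WT and 126 and 152 in KO, and fell from 18.4 and 16.5 to 5.36 and 4.36 CPM in KU812 cells. CEBPB, its relative in emergency granulopoiesis, was 38.2 and 54.01 CPM in WT and 59.1 and 69.4 in KO, and fell from 12.4 and 10.6 to 6.25 and 7.100 CPM. Both were higher in KO without overlap (0.44, SE 0.19 and 0.48, SE 0.19), both fell in KU812 cells (-1.84, SE 0.22 and -0.78, SE 0.23), and both differences passed (edgeR adjusted p = 0.00161 and 0.0348). Without WT library 1 their LSK values were 0.23 and 0.25. Of the 12 myeloid progenitor genes tested 4 fell in KU812 cells (33.3%, against 11.8% over all shared genes) and 0 rose, and 2 fell without shANP32B library 1 and likewise without library 2. CLEC12A, a lectin of myeloid precursors, was lower in both (-0.36 and -1.20), and CSF1R, the receptor for M-CSF, was -0.34 in LSK and 0.92 in KU812 cells without passing a test (edgeR adjusted p = 0.0617 for the difference).

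Hematopoietic stem cell genes leaned higher in KO LSK cells and split in KU812 cells. Of 33 tested, 26 were above 0 in LSK cells (median 0.24), 12 of them higher without overlap (17.1% over all shared genes), while in KU812 cells 5 rose and 5 fell (15.2% each, median 0.032, against 7.96% and 11.8%), and 8 fell without shNC library 1. ESAM, an adhesion molecule that marks stem cells, was higher in both, with 17.2 and 19.6 CPM in WT, 28.3 and 25.9 in KO, 146 and 114 in shNC and 232 and 207 in shANP32B (average change 0.66, SE 0.11, edgeR adjusted p = 0.00965). PROCR, the protein C receptor EPCR, was 22.02 and 21.1 CPM against 27.2 and 29.7 in LSK cells and near 1 CPM in KU812 cells, and HOXB4, a homeobox factor of stem cell expansion, was 6.49 and 10.4 against 12.9 and 11.1. TIE1, an endothelial and stem cell receptor kinase, went opposite ways. It stood at 67.3 and 92.3 CPM in WT and 120.1 and 104 in KO, and fell from 50.7 and 48.4 to 26.9 and 21.3 CPM in KU812 cells (difference 1.53, SE 0.24, edgeR adjusted p = 0.01). Other members whose change differed included CD34, CTNNAL1 and HLF. CD34, the progenitor antigen, chosen after its values were seen, fell in KU812 cells from 11.9 and 9.44 to 3.704 and 2.299 CPM and stood at 746 and 506 CPM in WT and 601 and 573 in KO. The LSK median of the list was 0.10 without WT library 1.

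Of 27 erythroid genes 11 fell in KU812 cells (40.7%, against 11.8% over all shared genes) and 0 rose (median -0.27), while the LSK median was 0.18 and 13 members were higher in LSK and lower in KU812 cells. CPOX, an enzyme of heme synthesis, stood at 38.5 and 50.6 CPM in WT and 57.7 and 72.3 in KO and fell from 191 and 142 to 103 and 89.8 CPM in KU812 cells (difference 1.34, SE 0.26, edgeR adjusted p = 0.0225). HEMGN, a nuclear factor of red cell precursors, was 16.6 and 17.9 CPM in WT, 21.96 and 26.00 in KO, 17.99 and 20.1 in shNC and 9.11 and 9.52 in shANP32B (difference 1.51, SE 0.26, edgeR adjusted p = 0.0135). Mouse Hemgn lies close to Anp32b, at chr4:46393989-46413506 (GRCm38). In LSK cells an effect of the altered locus on HEMGN and a response to ANP32B loss cannot be told apart. TFRC, the transferrin receptor, departed from the pattern of CPOX and HEMGN and was lower in both, 173 and 155 CPM in WT, 131 and 139 in KO, 3837 and 4186 in shNC and 2444 and 2638 in shANP32B. UROS was -0.36 in LSK and 0.30 in KU812 cells. The LSK median of the list was -0.017 without KO library 2 and 0.051 without WT library 1.

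Of 25 megakaryocyte and platelet genes 8 rose in KU812 cells and 2 fell (32% and 8%, against 7.96% and 11.8% over all shared genes, median 0.30), and the LSK median was 0.024. In KU812 cells 13 rose without shNC library 1 and 5 without shANP32B library 1. GP1BA rose as given above, and ITGB3, integrin beta 3, was higher in both, 25.04 and 19.5 CPM in WT, 27.5 and 28.9 in KO, 369 and 273 in shNC and 416 and 443 in shANP32B (edgeR adjusted p = 0.0391 in KU812). PPBP, the platelet basic protein, was the reverse: 5.57 and 2.96 CPM in WT and 8.95 and 6.57 in KO, and a fall from 21.4 and 14.6 to 6.44 and 3.67 CPM in KU812 cells (difference 2.66, SE 0.53, edgeR adjusted p = 0.0243). The LSK value of PPBP was 0.84, and 1.38 without WT library 1. CLEC1B, the podoplanin receptor CLEC-2, rose in KU812 cells from 0.9299 and 0.407 to 4.36 and 3.67 CPM and had only 16, 11, 8 and 2 counts in the 4 LSK libraries. The promoter of GP1BA is printed because GATA1 is the textbook regulator of platelet genes and the gene was higher in both experiments. Capitals mark AGATAA or TGATAA on either strand (the reverse reads TTATCT or TTATCA), from RefSeq (GRCm38.p6).
GP1BA (chr11:70638872-70639171, plus strand): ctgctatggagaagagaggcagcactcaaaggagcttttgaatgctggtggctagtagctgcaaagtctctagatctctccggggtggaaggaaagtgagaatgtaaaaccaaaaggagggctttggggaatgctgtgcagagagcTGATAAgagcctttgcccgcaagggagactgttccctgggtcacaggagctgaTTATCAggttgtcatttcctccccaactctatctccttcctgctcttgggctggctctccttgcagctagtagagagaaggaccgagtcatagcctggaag
It held 2 such matches in this window. Among the 17 megakaryocyte genes whose promoter was listed, 8 (47.1%) held at least 1, against 9.57% of shared genes and 19% of all promoters. For genes that met the counting rule the share was 10.3% for the same direction and 14.3% for opposite directions.

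**Figure D4:**
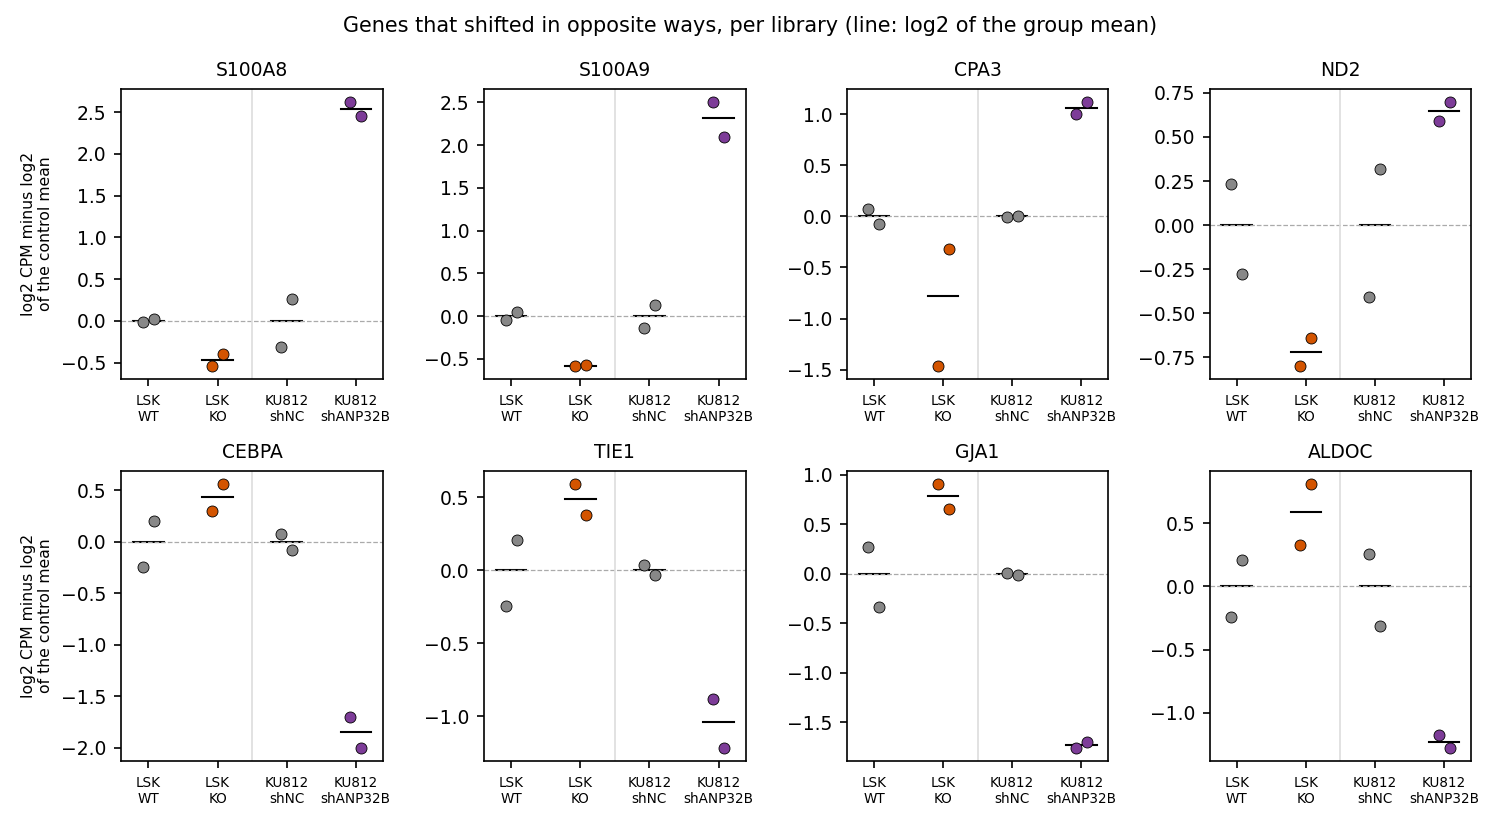
Level per library of 8 genes that shifted in opposite ways, as log2 CPM minus log2 of the mean of the experiment's control group (vertical axis), with 2 libraries per group on the horizontal axis and a line at log2 of the group mean. S100A8, S100A9, CPA3 and ND2 lie below their controls in LSK and above them in KU812 cells, and CEBPA, TIE1, GJA1 and ALDOC the reverse, without overlap in either experiment.

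KU812 resembles the mast cell and basophil line. Of 21 mast cell, basophil and eosinophil genes tested, 4 rose and 6 fell in KU812 cells (19% and 28.6%, against 7.96% and 11.8% over all shared genes). More rose without shNC library 1 or 2. The change differed for 5 of the 21, against 2.71% of all shared genes. CPA3, mast cell carboxypeptidase A, stood at 11.1 and 10.02 CPM in WT and 3.82 and 8.46 in KO and rose from 530.1 and 532 to 1064 and 1151 CPM in KU812 cells (difference -1.83, SE 0.34, edgeR adjusted p = 0.02). The LSK value of CPA3 was -0.32 without KO library 1. MS4A2, the beta chain of the IgE receptor, had the same signs, 5.899 and 6.58 CPM in WT, 2.85 and 4.403 in KO, 124 and 76.3 in shNC and 144 and 126 in shANP32B, and no test was passed (edgeR adjusted p = 0.115 for the difference). CD63, a granule membrane protein, was higher in both, at 0.23 and 0.93, as LTC4S was. The summed level of the 7 basophil and mast cell markers listed in LSK cells was 277 and 336 CPM in WT and 306 and 337 in KO, and 3 of the 7 were lower without overlap.

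Other genes higher in LSK and lower in KU812 cells came from several roles. GJA1, connexin 43, which joins stem cells to the stroma, stood at 7.87 and 5.15 CPM in WT and 12.2 and 10.3 in KO and fell from 15.2 and 15.1 to 4.48 and 4.68 CPM in KU812 cells (difference 2.5, SE 0.37, edgeR adjusted p = 0.00744). PNCK, a kinase of the CaM kinase I family, was 5.57 and 10.5 CPM in WT and 13.4 and 11.95 in KO and fell from 11.7 and 8.58 to 0.579 and 0.766 CPM, and its difference of 4.58 (SE 0.52) was the largest of the genes named by the rule. The LSK value of PNCK was 0.27 without WT library 1. EPS8L2, an actin regulator (0.63 and -1.5), and SYNGR1, a vesicle membrane protein (0.61 and -0.72), also passed the test of the difference (edgeR adjusted p = 0.0251 and 0.0389). In LSK cells the change of SYNGR1 was 0.35 without WT library 1. SHB, an adaptor of receptor kinases, did not (edgeR adjusted p = 0.0747), and its KU812 call was lost with library-total scaling, with DESeq2 and, by edgeR, without shNC library 1 (adjusted p = 0.251) and without shANP32B library 1 (adjusted p = 0.231). Of the 16 genes, 7 averaged 50 counts or more in both experiments: PPBP and ALDOC, described with their lists, and these 5.

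In the reverse direction, CD96, a receptor of T and NK cells, was 14.9 and 11.9 CPM in WT and 10.1 and 7.76 in KO and rose from 79.00 and 84.7 to 148 and 171 CPM in KU812 cells (difference -1.56, SE 0.23, edgeR adjusted p = 0.00759). GBP4, an interferon-induced GTPase, was 6.62 and 8.49 CPM against 5.12 and 4.68 and rose from 47.7 and 44.4 to 79.2 and 94.96 CPM (difference -1.53, SE 0.25, edgeR adjusted p = 0.0125). CLEC4D, a myeloid lectin, stood at -0.68 and 1.59, with 68 and 17 counts in shNC and 117 and 124 in shANP32B. BIRC3, an inhibitor of apoptosis induced by NF-kappaB, fell short of the 1.5-fold rule but differed by the test (-1.48, SE 0.32, edgeR adjusted p = 0.033), at 65.3 and 39.5 CPM in WT, 39.1 and 34.9 in KO, 20.9 and 15.5 in shNC and 37.5 and 34.2 in shANP32B. The T and NK cell list had a median of -0.61 in LSK cells over 17 genes that became 0.11 without WT library 1. The sum of the 6 T and NK markers listed was 121 and 91.6 CPM in WT and 87.0 and 117 in KO, which overlapped.

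Of 33 glycolysis and hypoxia response genes 23 fell in KU812 cells (69.7%, against 11.8% over all shared genes) and 0 rose, with a median of -0.67, the lowest of all lists, against -0.020 in LSK cells, where 16 were above 0. The change differed for 6 of the 33, as it did for 2.71% of all shared genes. ALDOC, an aldolase of glycolysis, stood at 8.19 and 11.2 CPM in WT and 12.1 and 16.98 in KO and fell from 260.0 and 175 to 96.04 and 89.7 CPM (difference 1.84, SE 0.32, edgeR adjusted p = 0.0141). The LSK value of ALDOC was 0.60, and 0.38 without WT library 1. NDRG1, a hypoxia-induced gene, was 65.5 and 91.03 CPM against 111 and 94.1 in LSK cells and fell from 600.1 and 287 to 103 and 106 CPM in KU812 cells (edgeR adjusted p = 0.01 for the difference). The 2 shNC libraries of NDRG1 lay far apart, and both lay above the shANP32B libraries. SLC2A3, the glucose transporter GLUT3, was lower in both (-0.24 and -0.89, average edgeR adjusted p = 0.0411), and PFKP stood at -0.22 and -0.24. The LSK median of the list was 0.14 without WT library 1.

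Of 28 sterol and fatty acid synthesis genes 14 fell in KU812 cells (50%, against 11.8% over all shared genes) and 1 rose. Fewer fell without shANP32B library 2. Of the 28, 3 were a common change, against 2.61% of all shared genes. The median was -0.46 in KU812 cells and -0.053 in LSK cells, and 0.011 in LSK cells without WT library 1. FDPS, farnesyl diphosphate synthase, was 67.3 and 52.9 CPM in WT, 44.98 and 49.6 in KO, 177 and 177 in shNC and 125 and 114 in shANP32B. INSIG1, the sterol-responsive brake on SREBP processing, was -0.21 and -1.30. SREBF2, the factor that drives these genes, was 0.20 in LSK and -0.33 in KU812 cells and passed no test. Of 27 transporters of solutes and amino acids 10 fell in KU812 cells (37%) and 3 rose (11.1%; 6 fell without shANP32B library 2, and 6 rose without shNC library 2), and SLC29A1, a nucleoside transporter, differed between the experiments (0.85, SE 0.18, edgeR adjusted p = 0.0341), while SLC1A5 stood at 0.24 and -0.37.

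The mitochondrially encoded genes had opposite directions in more of their members than any other list here. They were looked at as a list after ND2, a subunit of complex I, had met the counting rule. ND2 stood at 2479 and 1737 CPM in WT and 1211 and 1351 in KO, and rose from 1309 and 2158 to 2615 and 2811 CPM in KU812 cells (-0.72, SE 0.21 and 0.65, SE 0.16, edgeR adjusted p = 0.0149 in KU812 and 0.0517 for the difference). Of the 13 genes 12 were lower in LSK and higher in KU812 cells, as were 2271 of the 9922 shared genes. In LSK cells 10 were lower without overlap (15.5% over all shared genes). In KU812 cells 7 rose (53.8%, against 7.96% over all shared genes) and 0 fell. Their medians were -0.59 and 0.35. They made up 3.05% and 3.11% of counts in WT and 2.13% and 2.31% in KO, and 3.05% and 3.81% in shNC and 4.59% and 4.58% in shANP32B. The mitochondrial share is also a common measure of RNA quality, and its part in the other results was not tested. COX1, of complex IV, was 13719 and 15808 CPM in WT, 10288 and 11134 in KO, 10715 and 11940.3 in shNC and 14022 and 13826 in shANP32B, and CYTB, of complex III, 5319.6 and 5004 in WT, 3536 and 3846 in KO, 1722 and 2483 in shNC and 2646 and 2675 in shANP32B.

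In that list the difference passed the test for 1 gene, COX2 (-1.65, SE 0.38, edgeR adjusted p = 0.0444), against 2.71% of all shared genes. COX2 stood at 67.3 and 32.3 CPM in WT and 20.9 and 22.3 in KO. In KU812 cells COX2 rose from 2702 and 3398 to 4152 and 4147 CPM. Mouse COX2, COX3, ATP6, ATP8, ND3, ND4L and ND6 were listed at far lower CPM than the human genes, so how reads were assigned to them is uncertain. ND2 lost its KU812 call with DESeq2 (adjusted p = 0.231), and its LSK value was -0.44 without WT library 1. Without single libraries 11 to 13 of the 13 kept opposite signs. Without shNC library 2, 12 rose, in place of 7. Of 39 nuclear genes of the respiratory chain 1, NDUFC2, rose in KU812 cells and 0 fell (4 rose without shNC library 2), with medians of 0.009 and -0.015, and NDUFC2 was higher in both (0.28 and 0.83). CYCS (-0.40 and 0.21), CYC1 (0.19 and -0.23) and NDUFV2 (-0.19 and -0.21) passed no test.

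Of 36 p53 targets tested 0 met the common change rule, which 2.61% of all shared genes did. With a share that low, 0 among 36 genes is not a result about these targets. Of the 36, 15 had the same sign in both and 21 opposite signs, with medians of 0.007 and -0.073. In KU812 cells 2 rose and 6 fell (5.56% and 16.7%, against 7.96% and 11.8% over all shared genes), and 5 rose without shNC library 2 and with library-total scaling. CDKN1A, the p21 inhibitor of cyclin-dependent kinases, stood at 247 and 92.1 CPM in WT and 114 and 86.3 in KO, and at 62.3 and 80.7 CPM in shNC and 47.7 and 76.3 in shANP32B. The groups of CDKN1A overlapped in both experiments, and its LSK log2 fold change of -0.76 (SE 0.40) became 0.12 without WT library 1. MDM2, the ubiquitin ligase that p53 induces and that removes it, was 129 and 142 CPM in WT, 116 and 111 in KO, 84.9 and 96.2 in shNC and 68.2 and 71.2 in shANP32B. It was lower without overlap in both (-0.25, SE 0.14 and -0.38, SE 0.12), fell in KU812 cells (edgeR adjusted p = 0.0466) and fell short on the average (edgeR adjusted p = 0.0609). EI24, an endoplasmic reticulum protein, differed between the experiments (60.6 and 54.96 CPM in WT, 72.7 and 64.1 in KO, 85.2 and 113 in shNC and 54.8 and 51.7 in shANP32B, edgeR adjusted p = 0.02), as did BTG2, an antiproliferative gene chosen after its values were seen, which rose in KU812 cells (2.18) and stood at -0.15 in LSK cells. ERCC5, a repair nuclease, was 0.32 and -0.28. The LSK median of the list was -0.075 without WT library 1.

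Of 25 unfolded protein response genes 14 were below 0 in both, with medians of -0.16 and -0.12, and 0.037 in LSK cells without WT library 1. In KU812 cells 2 rose (8%) and 4 fell (16%), against 7.96% and 11.8% over all shared genes. DNAJB9, an ER co-chaperone, was lower in both and fell in KU812 cells (-0.31 and -0.75, edgeR adjusted p = 0.0138), and HERPUD1 (-0.37 and -0.31) and CALR, calreticulin (-0.38 and -0.11), were lower without overlap. CREB3L2 was 0.35 and 0.054. Of 26 genes of the ATF4 stress response and serine metabolism 5 fell in KU812 cells (19.2%) and 0 rose (9 fell without shNC library 1 and 3 without shANP32B library 1 or 2), and ATF4 itself stood at 727 and 846 CPM in WT, 622 and 619 in KO, 226 and 281 in shNC and 218 and 224 in shANP32B, while PCK2 was 0.17 and -0.59. In 31 interferon response genes 0 were free of overlap in both (20.2% over all shared genes), and 3 rose (9.68%) and 2 fell (6.45%) in KU812 cells, the 2 being TRIM25 (-0.73, LSK -0.082) and IFIT1 (-1.40, LSK 0.025). Of 31 immediate early genes 6 rose (19.4%) and 1 fell (3.23%) in KU812 cells (11 rose without shNC library 2, and 4 and 5 fell without shNC library 1 and shANP32B library 2), and SPRY1 (0.33 and -0.31) and ETV5 (0.70 and -0.17), feedback targets of MAP kinase signalling, were higher in LSK and lower in KU812 cells without overlap and passed no test.

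The ANP32 family and other histone chaperones split in KU812 cells between 7 that fell (25%, against 11.8% over all shared genes) and 21 that did not pass. Among the 7 was ANP32B itself, the target of the hairpin, so the share is not that of the other members alone. The 7 became 11 without shNC library 1 and 3 without shANP32B library 1 or 2, with medians of -0.042 and -0.24. The paralog ANP32A stood at 366 and 377 CPM in WT, 386 and 411 in KO, 250.03 and 303 in shNC and 288 and 288 in shANP32B, and the paralog ANP32E at 0.14 and -0.15, neither past a test. NCL, nucleolin, was -0.098 and -0.24. Of 13 genes of the MYC, MAX and MXD network 5 fell (38.5%) and 1 rose (7.69%) in KU812 cells (3 fell without shNC library 1 or shANP32B library 1), and MYCL was lower in both (15.3 and 15.2 CPM in WT, 10.4 and 10.6 in KO, 2.61 and 2.28 in shNC and 0.849 and 0.686 in shANP32B). Of 29 BCL2 family and cell death genes 2 rose and 2 fell (6.9% each, against 7.96% and 11.8% over all shared genes), 6 and 5 without shNC library 2, with BOK (0.80 and 0.38) and BAD (0.37 and 0.39) higher in both without overlap and past no test. Of 27 cyclins, kinases and inhibitors of G1 3 rose (11.1%) and 5 fell (18.5%) in KU812 cells (9 fell without shNC library 1 and 3 without shANP32B library 1), with E2F8 at -0.19 and -0.37 and RBL2 at 0.14 and -0.32.

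Among markers of cells outside the gate, 4 of 12 stromal and endothelial genes, 3 of 17 T and NK cell genes and 1 of 8 B and plasma cell genes were free of overlap in both experiments, as were 20.2% of all shared genes. Of the 12 stromal and endothelial genes 7 were lower in LSK and higher in KU812 cells. SPARC, a collagen-binding matrix protein, was 10.4 and 7.92 CPM in WT and 3.09 and 4.12 in KO but 38.6 and 33.7 in shNC and 39.4 and 39.05 in shANP32B (difference -1.46, SE 0.29, edgeR adjusted p = 0.0241). COL1A1 (-0.85 and 0.17) and KDR (-0.34 and 1.67) had the same signs, and COL4A2 was 0.46 and 0.52. Of 8 B and plasma cell genes CIITA, the regulator of MHC class II, fell in KU812 cells (-2.27) and was -0.34 in LSK cells. CCR7, a homing receptor of lymphocytes, was 17.6 and 2.19 CPM in WT and 1.38 and 1.33 in KO, so that WT library 1 held its LSK value (-2.88, and -0.69 without that library). The largest LSK value in the plot of both changes was that of ECHDC2, an enoyl-CoA hydratase relative chosen after its values were seen. It stood at 1.11 and 15.3 CPM in WT and 184 and 186 in KO, against 34.9 and 26.2 in shNC and 26.5 and 23.1 in shANP32B, and the difference passed the test (4.91, edgeR adjusted p = 0.0122), while its LSK change alone did not (edgeR adjusted p = 0.894).

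**Figure D5:**
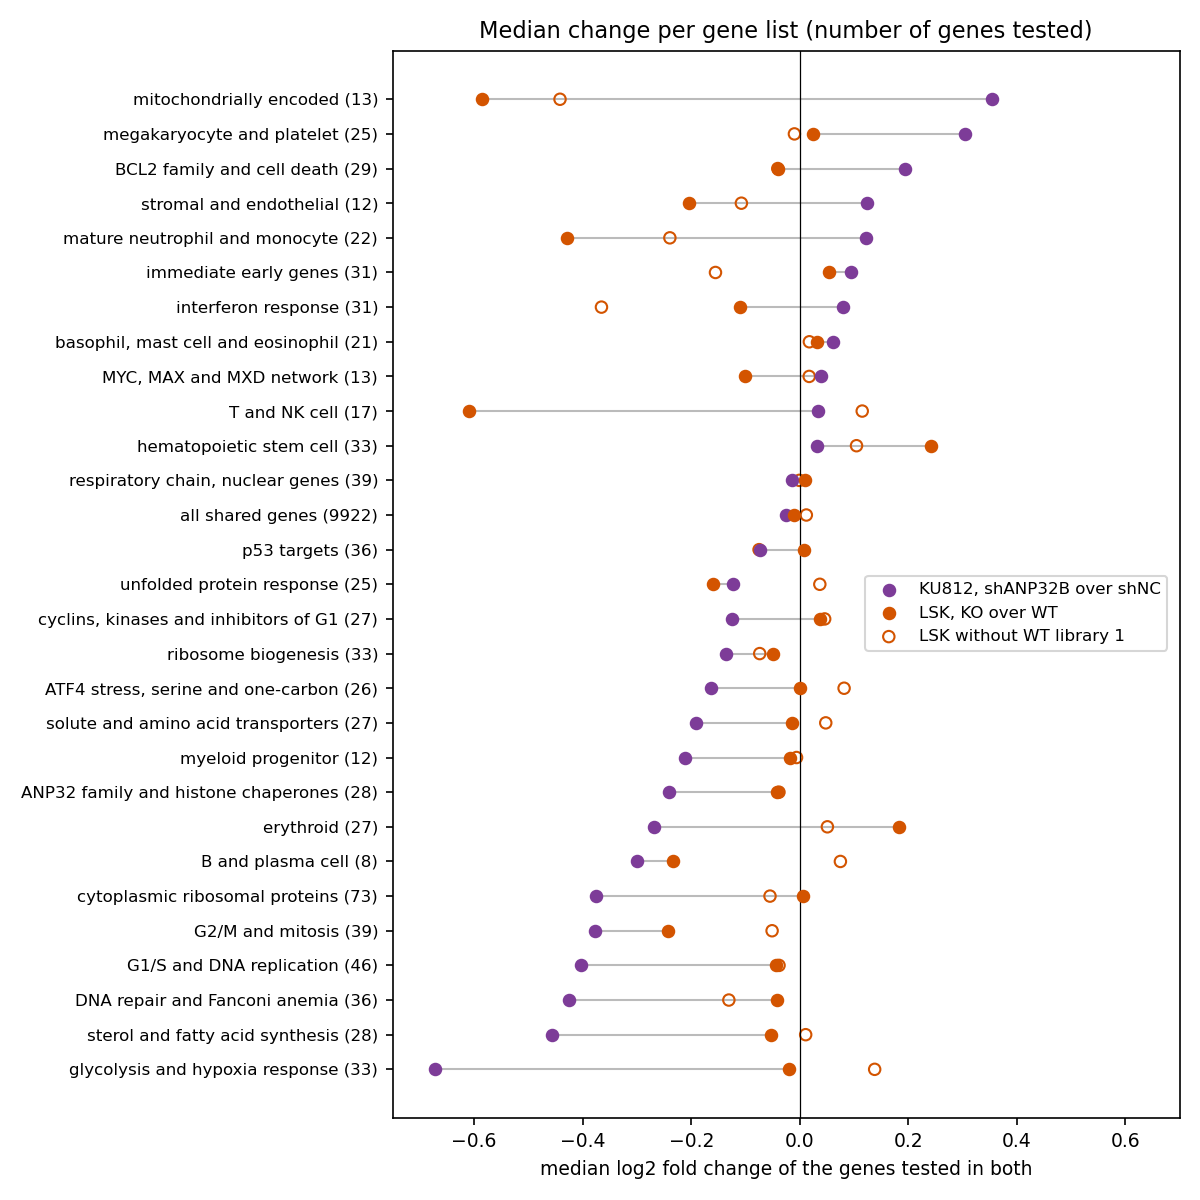
Median log2 fold change (horizontal axis) of each gene list (vertical axis, number of genes tested in brackets) in KU812 cells (purple), in LSK cells (filled orange) and in LSK cells without WT library 1 (open orange). The G2/M list lies below 0 in both (-0.24 and -0.38), the mitochondrially encoded genes lie on opposite sides (-0.59 and 0.35), and the T and NK cell list crosses 0 without WT library 1.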

How the data were processed

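RNA-seq counts were compared in 8 libraries: mouse LSK cells (2 WT, 2 KO) and human KU812 cells (2 shNC, 2 shANP32B). The values used are the raw read counts per gene that the authors deposited. HISAT2, TopHat, Cufflinks, DESeq, GRCm38 and GRCh38 are named in the submitters' processing notes without role. The counting tool, the strand setting and the treatment of reads shared by near-identical genes were not given in the sources used here.

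Each experiment was fitted by itself over all its genes with edgeR 4.0.16 in R 4.3.3 (filterByExpr, TMM scaling, quasi-likelihood test, Benjamini-Hochberg adjustment, threshold 0.05). Each standard error (SE) is the absolute coefficient over the square root of F. CPM used the TMM-scaled library sizes. The difference and the average of the 2 changes were tested in 1 model over the 9922 shared genes and all 8 libraries, with a mean per group, 1 shared estimate of the spread and each experiment's own library sizes. The joint model was also run on simulated counts with known changes, whose outcome is not reported here. A count of 3 equals 0.191 to 0.284 CPM in LSK and 0.106 to 0.123 CPM in KU812 libraries, a floor that covers counting error only.

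Named genes were ANP32B with 4 context genes (CDKN1A, MDM2, ANP32A and ANP32E), up to 10 genes for each pair of directions (mean of at least 50 counts in each experiment, ordered by the smaller change), the 10 smallest p-values of the difference and of the common change, and up to 4 members of each list by the smaller change among members whose libraries did not overlap in either experiment (with none, the 2 smallest KU812 p-values). The members, rules and gene lists were chosen with earlier results of these data known, and the mitochondrial list after ND2 had been seen. Some genes that met these rules are not reported here. Alternatives were other scalings, no filter, DESeq2 1.42.0, the replicate block, other folds and leaving out each library.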

Additional observations from a re-analysis of the deposited data

Results flagged for a closer look

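Of the 139 genes named by the rules, 42 changed by different amounts in the 2 experiments at an edgeR adjusted p under 0.05 for the difference, 29 with opposite signs and 13 with the same sign. Values are the LSK change minus the KU812 change on the log2 scale. They are given without an explanation. Most of these genes had been chosen by the size of their change. Some had been named for the smallest p-values of this same test, and those pass it by construction. Over all 9922 shared genes 269 (2.71%) passed. Because of how the named genes were chosen, the 42 of 139 cannot be set against that share.

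Among blood lineage genes, the change in KU812 cells lay above that in LSK cells for S100A8 (-3.02), S100A9 (-2.89), LCN2 (-1.53), CPA3 (-1.83), CLEC1B (-4.01), CD96 (-1.56) and TOX (-1.08). HLF is among the 42, but no size is given for it, since shNC held 2 and 0 counts. The value of CLEC1B rests on 16, 11, 8 and 2 counts in LSK cells. It lay below that in LSK cells for CEBPA (2.28), CEBPB (1.27), PPBP (2.66), TIE1 (1.53), CPOX (1.34), HEMGN (1.51), PLAC8 (1.89) and CXCR4 (2.52). CXCR4 and PLAC8 were lower in both, and the other 6 had opposite signs.

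Among signalling, adhesion and matrix genes, the KU812 change lay above the LSK change for PTPRS (-2.69), ENDOD1 (-1.94), ADAP1 (-1.92), SMAD7 (-1.46), SPARC (-1.46), BIRC3 (-1.48), GBP4 (-1.53) and GBP5 (-1.5). It lay below for PNCK (4.58), HGF (2.55), GJA1 (2.5), AFAP1L1 (2.14), EPS8L2 (2.13), PLXND1 (1.57) and SYNGR1 (1.34).

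Among metabolic, chromatin and other genes, it lay above for COX2 (-1.65), AQP1 (-1.38) and DNAJB2 (-1.23), and below for NDRG1 (2.47), HIST1H1C (2.40), ALDOC (1.84), EI24 (1.14), INSIG1 (1.09), RPS16 (1.08), ANP32B (1.01) and SLC29A1 (0.85).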

How the results depend on the processing

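Not all named genes had their tests recomputed. The KU812 test was recomputed for named genes that met the counting rule. The joint tests were recomputed for the genes with their smallest p-values, which are the least likely to be lost. The outcome therefore says little about the other named genes. None of the recomputed tests, and of the LSK values of named genes shifted in both experiments, reversed. Among all 139 named genes, 7 LSK values changed sign without WT library 1. Of the test results 628 stayed on their side of the threshold and 16 did not. Among the 16 were tests of SHB, ABCA5, SEMA6C, BASP1, ZHX2, VASH1 and ND2. Of the LSK values 17 moved by more than their SE, and CDKN1A, not among them, changed sign without WT library 1 (0.12). Of the 28 list medians in LSK cells 12 changed sign without WT library 1, 6 without KO library 1 or 2, 4 without WT library 2, 7 with library totals and 3 with RLE. In KU812 cells 1 to 5 did without single KU812 libraries. These sign counts were chosen after seeing the data. Requiring 2-fold in both left 1 gene higher in both, 8 lower in both, 0 higher in LSK and lower in KU812, and 7 the reverse, and with no minimum fold there were 170, 237, 166 and 95. Without a filter on low counts 29 genes were lower in both. DESeq2 called a difference for 593 genes, 268 of them among the 269 of edgeR. Among genes past the KU812 threshold 56.5% had the same sign. Leaving out each library in turn gave 9 to 59 genes higher in both, 17 to 59 lower in both, 12 to 68 higher in LSK and lower in KU812, 7 to 37 the reverse, 52 to 780 with a difference, 46 to 979 with a common change, and 51.7% to 54.4% with the same sign. The lone sample left in a group is assumed to vary like the others. A lack of overlap is easier to meet with 1 library in a group, so rules that ask for it are looser there.

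The replicate numbers are shared as numbers only: deviations of same-numbered libraries correlated at -0.069 in LSK and 0.116 in KU812 cells, over 2 pairs each. With the replicate block 413 genes showed a difference and 263 a common change, and 24, 24, 24 and 20 genes met the counting rule. Depth limits the genes near the floor of 3 counts, and 2 libraries per group limit all others.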

Other observations

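The LSK change was the larger of the 2 for 14 of the 269 genes whose changes differed, of which the 5 given here were singled out after their values were seen. HOXB2, a homeobox factor, stood at 2.29 and 2.58 CPM in WT, 6.100 and 5.03 in KO, 48.4 and 47.6 in shNC and 43.3 and 40.9 in shANP32B (difference 1.39, SE 0.26, edgeR adjusted p = 0.0205). KPNA2, an importin that carries proteins into the nucleus, stood at 28.97 and 25.8 CPM in WT, 18.1 and 16.9 in KO, 274 and 351 in shNC and 353 and 379.6 in shANP32B (difference -0.88, SE 0.21, edgeR adjusted p = 0.0485). TNFAIP3, the NF-kappaB inhibitor A20, was -0.62 in LSK and 0.49 in KU812 cells, ANXA1, annexin A1, -0.42 and 0.38, and PTGER3, a prostaglandin E2 receptor, 0.63 and -0.44. Without WT library 1 the LSK values were 1.10 for HOXB2, -0.56 for KPNA2, -0.67 for TNFAIP3, -0.41 for ANXA1 and 0.60 for PTGER3.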
